A study of Sus scrofa with 2 samples.

Results

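GIPR, GLP1R, IAPP and PNPLA3 are the pig genes that match the human transgenes of the PIGinH11 pig or belong to the incretin receptors, and their own transcripts were measured across the cell classes of the pancreas. They were taken by symbol from a list of 5 genes, of which 4 carried their symbol among the 31908 genes of the count matrices. The glucagon receptor GCGR, the remaining gene of the list, is present only under its identifier ENSSSCG00000034891 and was named from the reference annotation, so that its values are given apart from the other 4. Single-nucleus RNA sequencing was performed on 1 piece of pancreas from a wild-type Bama pig (WT) and 1 from a transgenic Bama pig (PIGinH11), both males of 18 months. Both were fed control diet for the first 6 months and a high-fat and high-sucrose diet (HFHSD) for the following 12 months, so that diet and age were shared by the groups. The PIGinH11 pig carries knock-in copies of GIPRdn, hIAPP and PNPLA3I148M at the H11 locus, driven by promoters of beta cells or liver. The counts are listed by pig gene only. RNA of a human transgene that was assigned to its pig counterpart therefore cannot be told apart from the pig transcript.

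The incretin hormones GIP and GLP-1 are released from the gut after a meal and act on islet cells through GIPR and GLP1R. Both receptors, like GCGR, belong to the class B family of G protein-coupled receptors and raise cyclic AMP, which in beta cells amplifies insulin release when glucose is high. IAPP encodes islet amyloid polypeptide, or amylin, which beta cells store and release together with insulin and whose human form can aggregate into amyloid. PNPLA3 is a lipid droplet protein with hydrolase activity on glycerolipids, best known from liver, where the I148M form is linked to steatosis.

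In the Sscrofa11.1 build, GIPR (ENSSSCG00000021053) spans chr6:52022667-52033959 and GLP1R (ENSSSCG00000001589) spans chr7:34497779-34534356. GCGR lies at chr12:1149589-1157234. IAPP (ENSSSCG00000000582) and PNPLA3 (ENSSSCG00000027266) are both on chromosome 5, at chr5:52046570-52051475 and chr5:5075608-5092599. Every read counted for a gene was assigned to the whole gene, so that exons, introns and UTRs cannot be separated in these counts.

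The WT matrix held 13619 barcodes with a median of 3216 unique molecular identifiers (UMIs, 1 per captured molecule), and the PIGinH11 matrix held 14964 barcodes with a median of 1181.5. After filtering, 11854 and 13126 nuclei were retained. The libraries shared 60 barcode sequences, 47 of them retained in both. Neither the hormones nor the 5 genes were used to cluster the nuclei or to name the clusters, and a class is called beta-like, acinar-like and so on because it was rebuilt from these counts. Levels are UMIs of a gene for every 1000000 UMIs of its class (CPM). Brackets hold exact 95% intervals, which cover counting error only. Each group had 1 library, so that variation from animal to animal is unknown and the groups were compared without a test.

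The leading hormones of the beta-like, alpha-like and delta-like classes matched their names, whereas that of the WT gamma-like class did not. INS, the insulin gene, was at 8410 CPM in the 132 WT beta-like nuclei and at 5114 CPM in the 135 PIGinH11 beta-like nuclei, compared with 227 and 91.1 CPM in acinar-like nuclei. GCG, which encodes glucagon and GLP-1, was at 3982 and 3165 CPM in alpha-like nuclei (67 WT, 85 PIGinH11). Somatostatin (SST) reached 2039 and 2204 CPM in the delta-like class of 28 and 66 nuclei, and pancreatic polypeptide (PPY) reached 3308 and 3015 CPM in the gamma-like class of 13 and 41. In the WT gamma-like nuclei INS, at 3424 CPM, was higher than PPY, and GCG was at 233 CPM, so that their name rests on the other markers. The PIGinH11 gamma-like nuclei also held INS, at 1103 CPM. Summed RNA of 13 acinar markers, given for each class as a percentage of its level in acinar-like nuclei, was 18.4% (WT) and 29.1% (PIGinH11) in beta-like, 12.8% and 17.4% in alpha-like, and 15.5% and 25.3% in delta-like nuclei. A further 42 WT and 163 PIGinH11 endocrine nuclei were left unnamed, with acinar markers at 38.6% and 64.7%. They held GIPR at 32.9 and 25.2 CPM, GLP1R at 41.2 and 106 CPM and GCGR at 24.7 and 0 CPM. The part of acinar RNA in these levels and in those given below was not tested except where stated. Whether some of the 13 markers, which include KCNMA1 and CAMK1D, are transcribed by these nuclei themselves was not tested either. The marker sums therefore need not measure acinar RNA alone.

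GIPR was measured at its highest levels in the endocrine classes, in alpha-like, beta-like and delta-like nuclei of both pigs, and at low levels in the large acinar-like class, which still held 14.9% of its WT and 15.6% of its PIGinH11 UMIs. In beta-like nuclei, 24 UMIs were counted in the WT library (38.6 CPM, 24.8 to 57.5) and 27 in the PIGinH11 library (66.9 CPM, 44.1 to 97.4). Alpha-like nuclei held 20 UMIs (69.9 CPM, 42.7 to 108) and 13 UMIs (51.7 CPM, 27.5 to 88.4). Delta-like nuclei held 6 UMIs (71.5 CPM, 26.2 to 156) and 10 UMIs (64.6 CPM, 31 to 119). The intervals of these 3 classes overlapped in each library, and no order among them can be given. In gamma-like nuclei, 1 UMI was counted among 13 WT nuclei (14.6 CPM) and 13 UMIs, from 9 of 41 nuclei, in the PIGinH11 library (142 CPM). The WT interval of this class reaches up to 81.2 CPM, and the class is too small in the WT library to place GIPR.

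Acinar-like nuclei held GIPR at 0.364 CPM (11 UMIs) in the WT and 0.904 CPM (14 UMIs) in the PIGinH11 library. The level in beta-like nuclei was therefore 106-fold (50 to 240) and 74-fold (37.5 to 153) higher than in acinar-like nuclei. In alpha-like nuclei it was 192-fold (87.6 to 443) and 57.2-fold (24.7 to 131) higher. Of the genes tested in beta-like nuclei, 23.9% were more than 2-fold above acinar-like nuclei in both libraries, and the corresponding shares were 25.1% for alpha-like and 30.5% for delta-like nuclei. GIPR was past this fold in all 3 classes, although its 6 WT UMIs in delta-like nuclei were under the 10 UMIs required of a tested gene. No UMI of GIPR was found in stellate-like or mural-like nuclei, which allows up to 4.03 and 22.8 CPM in the WT and 5.78 and 24 CPM in the PIGinH11 library. GIPR was also measured in beta-like nuclei in which acinar markers made up less than 0.5% of UMIs. It was at 39.3 CPM in 80 WT nuclei and at 69.1 CPM in 50 PIGinH11 nuclei. These nuclei still held acinar markers at 3376 and 3834 CPM, compared with 4720 and 6850 CPM over all beta-like nuclei.

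**Figure D1:**
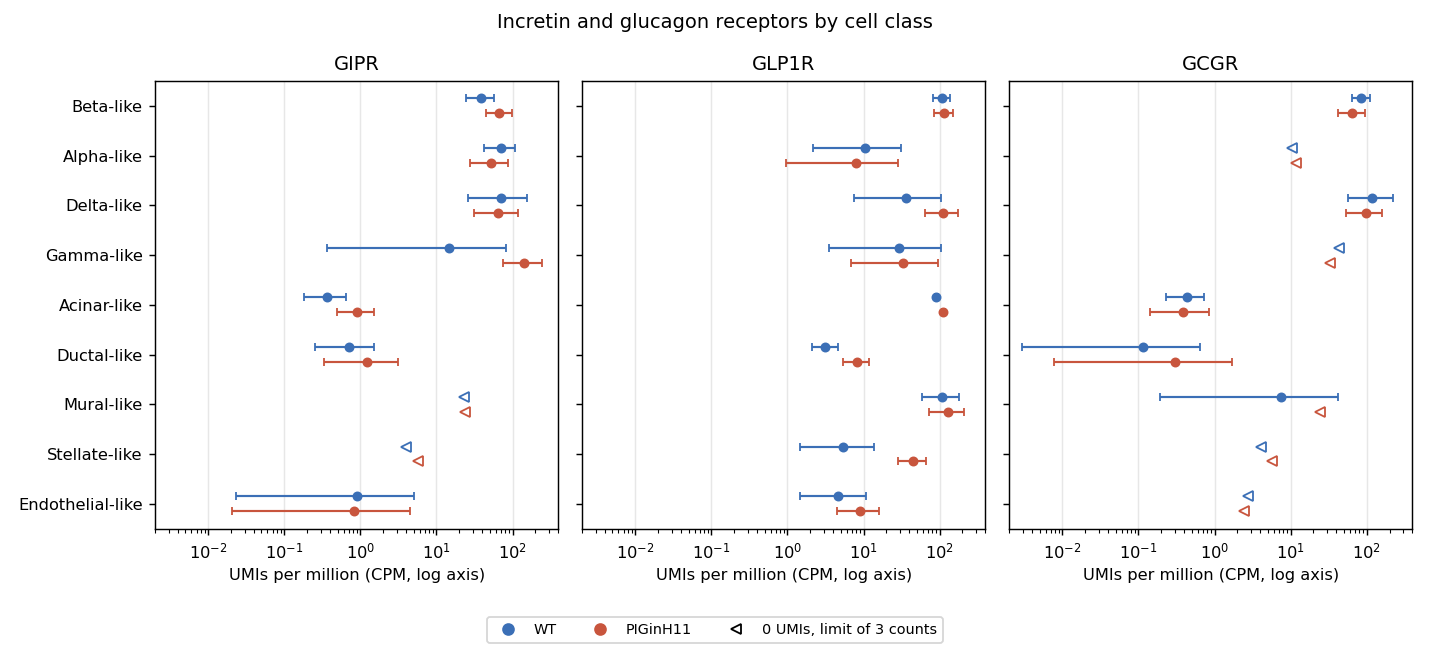
Levels of GIPR, GLP1R and GCGR in 9 cell classes, in CPM on a log axis. Points are the 2 libraries (WT blue, PIGinH11 red), bars are exact Poisson 95% intervals, and open triangles mark the limit of 3 counts where no UMI was found. GIPR lies in the endocrine classes and GCGR in beta-like and delta-like nuclei. GLP1R lies in beta-like, acinar-like and mural-like nuclei and, in the PIGinH11 library, also in delta-like nuclei.

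GLP1R had a wider distribution, and most of its RNA was not in the islet. Acinar-like nuclei held 2745 of the 2890 UMIs of GLP1R in the WT nuclei retained (95%) and 1731 of 1923 in the PIGinH11 nuclei (90%). Acinar-like nuclei made up 69.2% and 69.1% of all UMIs, so that the share of GLP1R exceeded the share of RNA. The level in acinar-like nuclei was 90.9 CPM (87.6 to 94.4) in the WT and 112 CPM (107 to 117) in the PIGinH11 library. It was 28.9-fold (19.8 to 44) and 13.7-fold (9.4 to 20.9) above ductal-like nuclei, and 19.9-fold (8.52 to 61.4) and 12.5-fold (6.99 to 25.2) above endothelial-like nuclei. At least 1 UMI of GLP1R was found in 23.4% of WT acinar-like nuclei (22.5 to 24.3) and in 15.3% of PIGinH11 acinar-like nuclei (14.5 to 16). In endothelial-like nuclei, a class used here to gauge free RNA, the shares were 1.44% and 1.92%, although these nuclei were deeper, with medians of 3860 and 1719 UMIs compared with 2845 and 1214 in acinar-like nuclei. With nuclei of fewer than 500 UMIs left out and the others thinned to 500 UMIs, the expected share of acinar-like nuclei was 3.81% in the WT and 4.86% in the PIGinH11 library. The order of the libraries by share thus went against that by CPM before thinning and not after it.

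Beta-like and mural-like nuclei reached the same range as acinar-like nuclei in both libraries, and delta-like nuclei did so in the PIGinH11 library (110 CPM). The WT delta-like interval, on 3 UMIs, includes the acinar-like level. In beta-like nuclei, 66 UMIs (106 CPM, 82.2 to 135) were counted in the WT and 46 (114 CPM, 83.5 to 152) in the PIGinH11 library, in 34.1% and 25.2% of nuclei. Mural-like nuclei, the pericytes and smooth muscle cells of vessels, held 14 UMIs (106 CPM, 58.1 to 178) and 16 UMIs (128 CPM, 73 to 207). The level in beta-like nuclei was 1.17-fold (0.901 to 1.49) and 1.02-fold (0.744 to 1.37) that of acinar-like nuclei, and both intervals include 1. GLP1R was thus not among the genes raised in beta-like over acinar-like nuclei.

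Alpha-like nuclei held little GLP1R, with 3 UMIs in the WT (10.5 CPM, 2.16 to 30.7) and 2 UMIs in the PIGinH11 library (7.95 CPM, 0.963 to 28.7). Beta-like nuclei were 10.1-fold (3.32 to 50.4) and 14.3-fold (3.75 to 122) higher. Relative to acinar-like nuclei, GLP1R in alpha-like nuclei was at 11.5% and 7.11%, which is no higher than the 12.8% and 17.4% at which acinar markers were found there. Both incretin receptors were therefore measured in beta-like nuclei, whereas in alpha-like nuclei GIPR stood well above its acinar level and GLP1R did not. Delta-like nuclei differed between the pigs in the counts, with 3 UMIs in 28 WT nuclei (35.8 CPM, 7.38 to 105) and 17 UMIs in 66 PIGinH11 nuclei (110 CPM, 64 to 176), but the log2 ratio of 1.62 had an interval from −0.17 to 4.03.

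GLP1R was also followed in nuclei with more or less RNA of the acinar markers. Stellate-like nuclei held 4 UMIs (5.38 CPM) in the WT and 23 UMIs (44.3 CPM) in the PIGinH11 library, a log2 ratio of 3.04 (1.49 to 5.04). Of these 23 UMIs, 22 came from the 87 nuclei in which acinar markers made up at least 0.5% of UMIs (137 CPM), and 1 came from the other 175 nuclei (2.79 CPM). The WT stellate-like nuclei under this limit held 1 UMI in 171 nuclei (1.71 CPM), so that without such nuclei the libraries were at like low levels. All 7 UMIs of PIGinH11 Schwann-like nuclei likewise came from the 49 nuclei at or over the limit. In mural-like nuclei GLP1R did not depend on these nuclei. Those under the limit held 8 UMIs (99.9 CPM) in 28 WT nuclei and 11 UMIs (107 CPM) in 54 PIGinH11 nuclei. In WT beta-like nuclei the level was 107 CPM under and 105 CPM at or over the limit. In PIGinH11 beta-like nuclei it was 56.6 CPM (9 UMIs, 50 nuclei) under and 151 CPM (37 UMIs, 85 nuclei) at or over it. GCGR, which acinar-like nuclei held at only 0.387 CPM, was split likewise in these PIGinH11 nuclei, at 31.4 CPM (5 UMIs) under and 86 CPM (21 UMIs) at or over the limit. The part of acinar RNA in the levels of beta-like nuclei was not tested. For GLP1R in nuclei under the limit, the log2 ratio between PIGinH11 and WT was −0.92 (−2.15 to 0.14), with 9 and 41 UMIs.

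**Figure D2:**
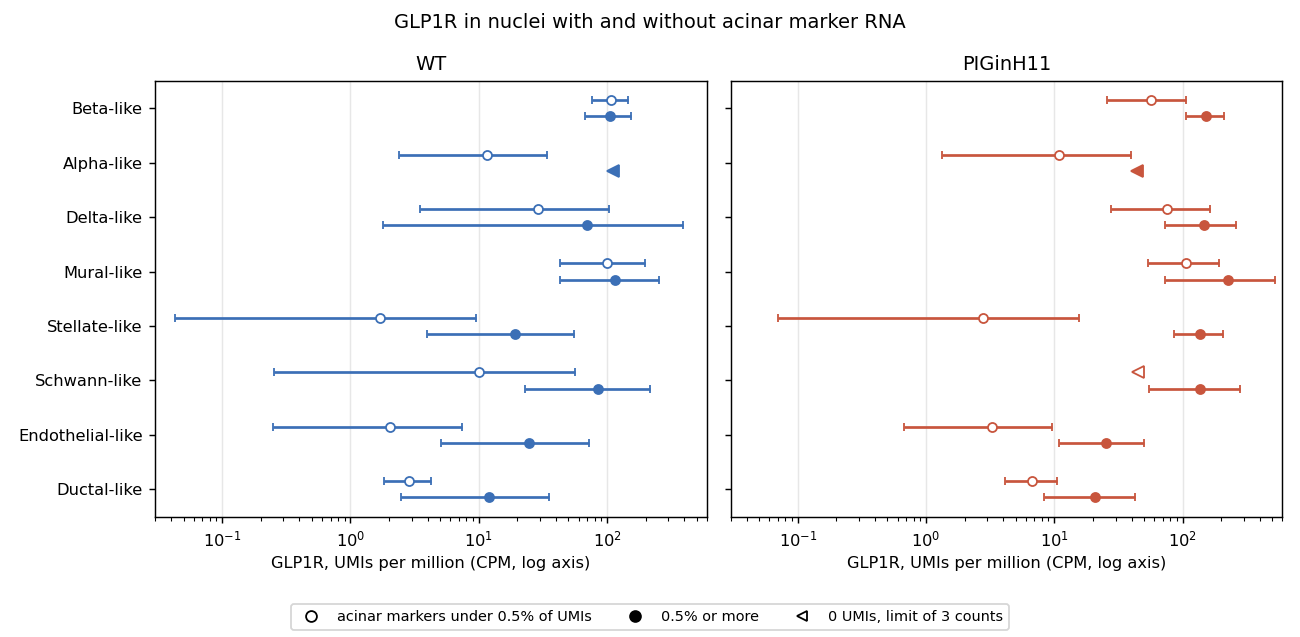
GLP1R in nuclei of 8 classes, split by whether acinar markers made up less than 0.5% of the UMIs of a nucleus (open) or at least 0.5% (filled), in CPM on a log axis with exact Poisson 95% intervals. Triangles mark the limit of 3 counts where no UMI was found. In stellate-like nuclei of the PIGinH11 library, the level was 2.79 CPM under 0.5% and 137 CPM at or over it. Mural-like nuclei were at 107 CPM under 0.5%.

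Within the acinar-like class, GLP1R was found in each of 7 clusters, at 47.9 to 110 CPM in the WT and 73.2 to 133 CPM in the PIGinH11 library. The lowest WT levels, 47.9 and 53.4 CPM, were in the 2 clusters of lowest depth, with median UMIs of 890 and 1562.5. In the PIGinH11 library the lowest level, 73.2 CPM, was in a cluster with a median of 1252 UMIs, and the 2 shallowest clusters, with medians of 663 and 854, were at 91.1 and 101 CPM. Digestive enzymes, summed over PRSS2, CPA1, CPB1, PNLIP, CELA2A, CTRC and the colipase CLPS, made up 4.52% to 23.3% of UMIs over the WT clusters. Other enzyme genes were not summed. The cluster with the highest share held GLP1R at 76 CPM. The 2 WT clusters of lowest depth had the next highest shares, 12.8% and 7.98%. The WT clusters with the lowest shares, 4.52% and 4.61%, held the highest levels, 107 and 110 CPM. The PIGinH11 library had the opposite order at its extremes. Its cluster with the highest share, 9.21%, held the highest level, 133 CPM, and that with the lowest share, 2.45%, the lowest level, 73.2 CPM. In the 4 ductal-like clusters, GLP1R was between 1.69 and 6.34 CPM in the WT and between 2.08 and 21.7 CPM in the PIGinH11 library. Every acinar-like cluster was above every ductal-like cluster of its own library, although the interval of the PIGinH11 cluster at 21.7 CPM, with 3 UMIs, reached 63.5 CPM. A further cluster of 351 WT and 380 PIGinH11 nuclei, with PRSS2 and CPA1 among its leading genes, was left unnamed and is not counted here. The 352 WT and 398 PIGinH11 unnamed nuclei, most of them from that cluster, held GLP1R at 5.25 CPM (7 UMIs) and 47.7 CPM (14 UMIs).

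**Figure D3:**
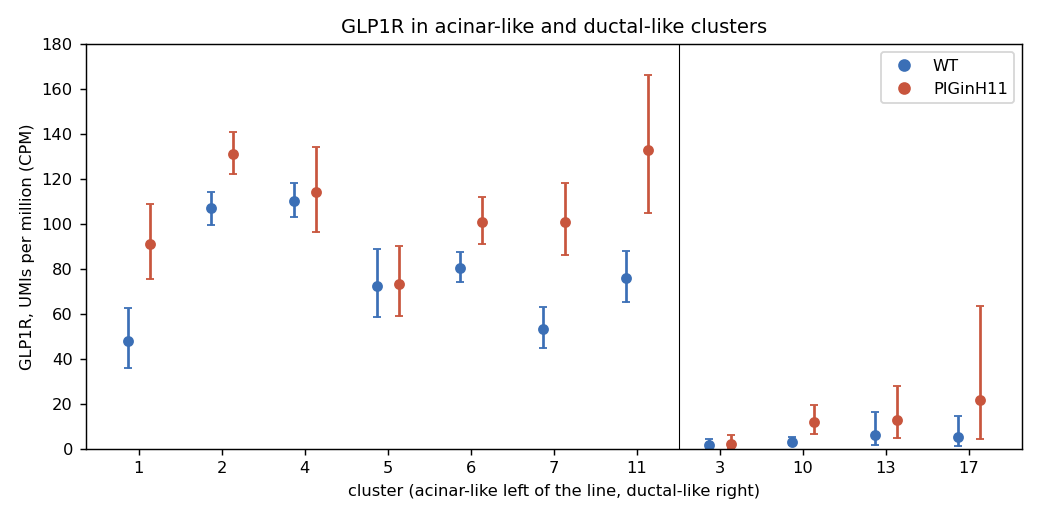
GLP1R in CPM for the 7 acinar-like clusters (left of the line) and 4 ductal-like clusters (right), with exact Poisson 95% intervals, for WT (blue) and PIGinH11 (red). The acinar-like clusters range from 47.9 to 133 CPM, and the ductal-like clusters do not exceed 21.7 CPM.

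GCGR, the receptor for glucagon, was measured in beta-like and delta-like nuclei and not in alpha-like nuclei, the source of its ligand. Beta-like nuclei held 53 UMIs (85.3 CPM, 63.9 to 112) in the WT and 26 UMIs (64.5 CPM, 42.1 to 94.4) in the PIGinH11 library. Delta-like nuclei held 10 UMIs (119 CPM, 57.2 to 219) and 15 UMIs (96.9 CPM, 54.3 to 160). The level in delta-like nuclei was 1.4-fold (0.634 to 2.78) and 1.5-fold (0.74 to 2.95) that of beta-like nuclei, so that the classes could not be ordered. No UMI was found in alpha-like nuclei among 286035 WT and 251538 PIGinH11 UMIs, which allows up to 10.5 and 11.9 CPM. Set against this limit, the levels in beta-like nuclei were at least 8.13-fold and 5.4-fold higher, and the exact intervals of the ratio, which include the counting error of beta-like nuclei, begin at 6.39-fold and 4.09-fold. No UMI was found in gamma-like nuclei either, with limits of 43.7 and 32.8 CPM. Endocrine nuclei were also assigned by hormone instead of by cluster. Each was given the hormone with the highest count relative to its mean in acinar-like nuclei of the same library. By this rule 2 UMIs of GCGR fell among 79 GCG-assigned WT nuclei and none among 109 PIGinH11 nuclei. In acinar-like nuclei GCGR was at 0.431 and 0.387 CPM, 198-fold (107 to 396) and 166-fold (67 to 494) below beta-like nuclei.

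The 3 receptors were also counted together in individual beta-like nuclei. Of 132 WT nuclei, 45 held GLP1R, 34 GCGR and 20 GIPR. GIPR and GLP1R were found together in 6 nuclei (6.82 from the product of the shares), GLP1R and GCGR in 13 (11.6 from the product), GIPR and GCGR in 7 (5.15 from the product), and all of them in 3. Among 135 PIGinH11 nuclei, 34 held GLP1R, 22 GIPR and 20 GCGR, and the pairs were found in 7, 7 and 5 nuclei in the same order (5.54, 5.04 and 3.26 from the products), with all of them in 1. In 56 WT and 77 PIGinH11 nuclei none of the receptors was found. These nuclei were also shallower, with median UMIs of 2620 and 1588 compared with 5411.5 and 3432.5 in nuclei with a receptor. The share of beta-like cells that lack a receptor cannot be read from these counts.

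IAPP was not detected in any endocrine class of either pig. No UMI was found among 621195 UMIs of WT and 403374 UMIs of PIGinH11 beta-like nuclei, which allows up to 4.83 and 7.44 CPM. These nuclei held 5224 and 2063 UMIs of INS, whose product IAPP accompanies in the secretory granule. Alpha-like, delta-like, gamma-like and acinar-like nuclei held no UMI of IAPP either. Over all barcodes, including those not retained, the gene had 2 UMIs in the WT and 3 in the PIGinH11 library. Of those in retained nuclei, 1 WT and 1 PIGinH11 UMI were in ductal-like and 2 PIGinH11 UMIs in endothelial-like nuclei. Assigning endocrine nuclei by hormone also gave 0 UMIs in 148 WT and 161 PIGinH11 nuclei assigned to INS. The limits concern UMIs counted under this gene model, and whether reads from IAPP fell outside it was not tested. No signal that could come from the hIAPP transgene was found under the pig gene in the PIGinH11 beta-like nuclei at this limit.

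PNPLA3 was rare in both pigs and more frequent in the PIGinH11 library. In the nuclei retained, 15 UMIs (0.344 CPM, 0.192 to 0.567) were counted in the WT and 42 UMIs (1.88 CPM, 1.35 to 2.54) in the PIGinH11 library, although the WT library was deeper. Acinar-like nuclei held 13 of the WT UMIs (0.431 CPM, 0.229 to 0.736) and 26 of the PIGinH11 UMIs (1.68 CPM, 1.1 to 2.46). Ductal-like nuclei held 1 and 5 UMIs, and beta-like nuclei 1 in each library. Stellate-like and Schwann-like nuclei each held 3 UMIs and mural-like nuclei 2 in the PIGinH11 library and none in the WT library. The intervals of ductal-like nuclei (0.49 to 3.52 CPM) and beta-like nuclei (0.0628 to 13.8 CPM) of the PIGinH11 library include the acinar-like level. The interval of Schwann-like nuclei in that library (5.24 to 74.3 CPM) and that of mural-like nuclei (1.93 to 57.7 CPM) lay above it, on 3 and 2 UMIs.

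**Figure D4:**
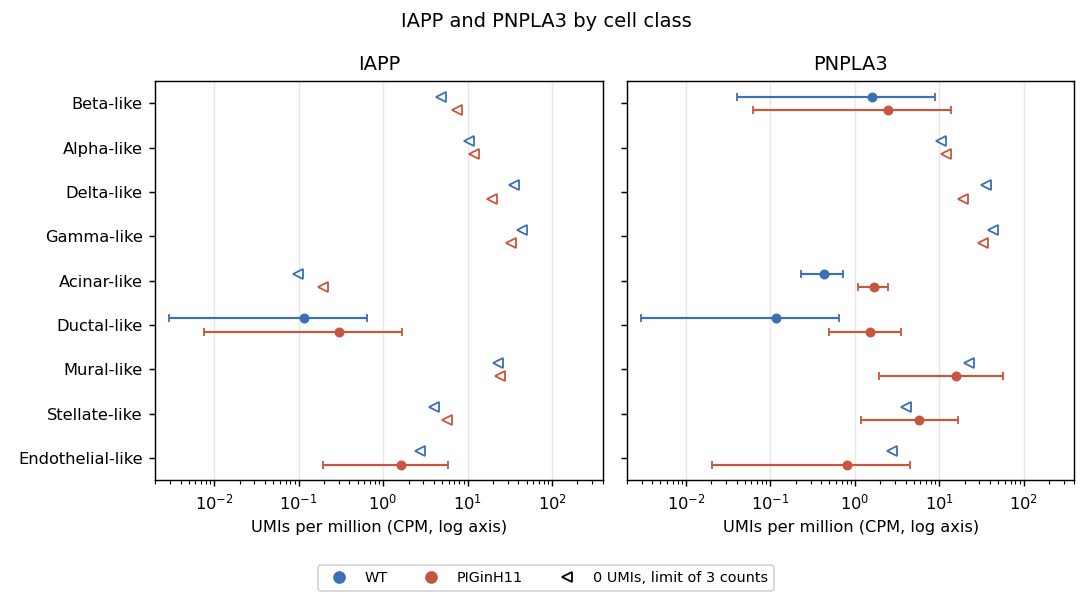
IAPP and PNPLA3 in 9 cell classes, in CPM on a log axis, for WT (blue) and PIGinH11 (red), with exact Poisson 95% intervals and open triangles at the limit of 3 counts where no UMI was found. IAPP has no UMI in the endocrine classes, and PNPLA3 in acinar-like nuclei is at 0.431 CPM in the WT and 1.68 CPM in the PIGinH11 library.

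The levels of the 2 libraries were then set against each other within a class. Of the pairs of gene and class, 10 had 10 or more UMIs in the WT and in the PIGinH11 library, and the interval of the log2 ratio left out 0 in 4 of them, namely GIPR in acinar-like, GLP1R in acinar-like and ductal-like, and PNPLA3 in acinar-like nuclei. Over all genes tested the interval left out 0 in 65% in acinar-like, 49.9% in ductal-like, 20.2% in beta-like, 14.8% in alpha-like, 16.1% in delta-like and 21% in mural-like nuclei, so that the 3 acinar-like pairs are not set apart from other genes by this count. The interval left out the median of its class in 2 pairs, GLP1R in ductal-like and PNPLA3 in acinar-like nuclei. The share of all genes that do so was not computed, so that these 2 pairs cannot be called set apart. None of the endocrine pairs among these 10 had an interval that left out 0. GIPR in gamma-like nuclei, with 1 WT and 13 PIGinH11 UMIs, fell short of 10 UMIs, although its interval left out 0 (3.28, 0.55 to 8.69). In beta-like nuclei the log2 ratio between PIGinH11 and WT was 0.79 (−0.06 to 1.65) for GIPR, 0.10 (−0.47 to 0.67) for GLP1R and −0.40 (−1.14 to 0.30) for GCGR. Without doublet removal the interval of GIPR left out 0 (0.91, 0.05 to 1.77). Among nuclei with less than 0.5% acinar markers that of GCGR did so as well (−1.58, −3.29 to −0.23), on 36 WT and 5 PIGinH11 UMIs. Of 5920 genes tested in beta-like nuclei, 7.92% differed by more than 2-fold in either direction, and none of these 3 receptors did. In alpha-like nuclei the ratio of GIPR was −0.44 (−1.57 to 0.64), where 6.21% of genes were past 2-fold. GCGR in delta-like nuclei had a ratio of −0.30 (−1.55 to 1.02), where 10.2% of genes were past 2-fold.

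For GLP1R in acinar-like nuclei, the ratio was 0.30 (0.21 to 0.39), and the median over the 18150 genes tested in this class was 0.28. With scaling to the median ratio of genes with at least 20 UMIs, it was 0.07 (−0.01 to 0.16). The ratio of GLP1R in acinar-like nuclei was therefore close to the median of all genes tested in the class. That median includes sparsely counted genes, whose ratios ran higher. The share among genes counted as deeply as GLP1R was not computed, so that these values cannot decide whether GLP1R was raised. In ductal-like nuclei, 27 UMIs were counted in each library (3.14 and 8.15 CPM), a ratio of 1.37 (0.55 to 2.20), and 16.5% of 13558 genes were more than 2-fold higher there. The share among ductal-like genes as sparsely counted as GLP1R was not computed. Acinar markers in ductal-like nuclei were at 6.98% of their acinar level in the WT and 11.2% in the PIGinH11 library, while GLP1R was at 3.46% and 7.29% of its acinar level. The ratio of GIPR in acinar-like nuclei, 1.31 (0.07 to 2.59), rested on 11 and 14 UMIs, and with median-of-ratios scaling its interval included 0 (1.09, −0.16 to 2.37).

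For PNPLA3 in acinar-like nuclei, the log2 ratio was 1.96 (0.95 to 3.05), or 3.9-fold. With nuclei of fewer than 500 UMIs left out and the others thinned to 500 UMIs it was 1.11. In this class 20.2% of genes were more than 2-fold higher in the PIGinH11 library, and among 3912 genes with 20 to 80 UMIs in both libraries together the share was 45.4%, with a median ratio of 0.96. The interval of PNPLA3 includes this median, and a ratio at least as high as its own was found in 5.83% of these sparsely counted genes. Of the 3 neighbours listed at lower coordinates on chromosome 5, SAMM50, a mitochondrial outer membrane assembly protein at chr5:5035893-5072550, had a ratio of 0.42 in acinar-like nuclei (15.2 and 20.4 CPM). PARVB, an adhesion protein at chr5:4906667-5015494, had a ratio of 2.02 (0.828 and 3.36 CPM). PARVG, a related adhesion protein, was at 0.398 and 0.387 CPM, with 12 and 6 UMIs.

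**Figure D5:**
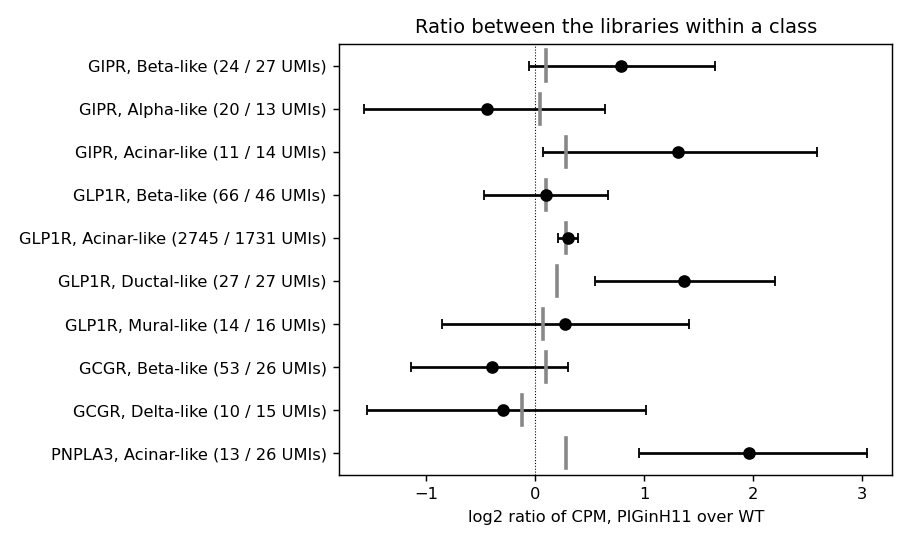
Log2 ratio of PIGinH11 over WT for the 10 pairs of gene and class with at least 10 UMIs in each library. Points carry exact 95% intervals for counting error, grey ticks mark the median of all genes tested in the class, and UMIs are given as WT / PIGinH11. GLP1R in acinar-like nuclei lies at the class median, and GLP1R in ductal-like and PNPLA3 in acinar-like nuclei lie above theirs. The share of all genes whose interval leaves out the median was not computed, and no median of sparsely counted genes is drawn.

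Across 23 points, the classes of each library with at least 20 nuclei, genes with at least 100 UMIs were ranked by how closely they followed each receptor. The Pearson correlation of log2(CPM + 5) with GIPR was highest for ADCY1 (0.981), an adenylyl cyclase, followed by HEPACAM2 (0.978), LHFPL4 (0.977), CPLX2 (0.974), a complexin of regulated exocytosis, and CCDC175 (0.973). For GCGR it was highest for NYAP2 (0.914), ARPP21 (0.913) and PCSK1 (0.906), the prohormone convertase that processes proinsulin, and then for DGKB (0.876) and NECAB1 (0.854). GLP1R was followed less closely, with SPOCK1 (0.779), FFAR2 (0.737), a receptor for short-chain fatty acids, and MOCOS (0.73) among the highest. The points share their library and clustering, and these values are a description.

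The ligands and the enzymes that process or clear them were placed by class. The counts of GIP were at most 0.581 CPM in acinar-like nuclei, and beta-like, alpha-like and delta-like nuclei held none. DPP4, the protease that inactivates GIP and GLP-1, was at 538 CPM in WT and 425 CPM in PIGinH11 alpha-like nuclei and at 3.22 and 2.48 CPM in beta-like nuclei. In delta-like nuclei DPP4 was at 227 and 84 CPM (19 and 13 UMIs), a log2 ratio of −1.43. Of the genes tested in that class, 6.81% were more than 2-fold lower in the PIGinH11 library. PCSK1 was at 201 and 245 CPM in beta-like, 179 and 142 CPM in delta-like and 3.5 and 7.95 CPM in alpha-like nuclei. PCSK2, the convertase that yields glucagon, was at 4625 and 4075 CPM in alpha-like nuclei. It was also at 7709 and 5077 CPM in beta-like and at 3815 and 3916 CPM in delta-like nuclei. IDE, which degrades insulin and amylin, was at 138 and 176 CPM in beta-like nuclei and at 142 and 109 CPM in acinar-like nuclei. Downstream of the receptors, RAPGEF4, a cyclic AMP sensor also called EPAC2, was at 343 and 488 CPM in beta-like nuclei, a ratio of 0.51. RAPGEF4 was at 376 and 421 CPM in ductal-like nuclei and higher, at 2076 and 1447 CPM, in endothelial-like nuclei. ADCY1 was at 96.6 and 139 CPM in beta-like and 273 and 330 CPM in alpha-like nuclei.

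Other class B receptors were also placed by class. SCTR, the secretin receptor, was at 2416 and 1698 CPM in ductal-like nuclei and at 262 and 330 CPM in delta-like nuclei. CALCRL, which forms the CGRP and adrenomedullin receptors with RAMP proteins, was at 1075 and 753 CPM in endothelial-like nuclei. PTH1R was at 228 and 343 CPM in mural-like nuclei, a class in which GLP1R was also measured. PTH2R was at 189 and 155 CPM in alpha-like nuclei and at 107 and 162 CPM in delta-like nuclei. CALCR, the core of the amylin receptors, was at 0 CPM in WT beta-like nuclei and at 2.48 CPM, or 1 UMI, in PIGinH11 beta-like nuclei. SCTR, PTH1R and PTH2R were chosen here after their values were seen.

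Counted by list, none of the genes tested was past 2-fold between the libraries in beta-like nuclei, where 7.92% of all 5920 genes were. This held for 2 class B receptors, 12 genes of receptor and cyclic AMP signalling and 10 of peptide processing and the granule. It also held for 3 of the PNPLA family and lipid droplets, 1 of ligands and their clearance, and 1 neighbour of PNPLA3. Lists this short are not set apart from other genes by this count. In acinar-like nuclei, where 20.2% of all genes were more than 2-fold higher in the PIGinH11 library and 2.31% were lower, 3 of 10 class B receptors were higher, with a list median of 0.91 beside 0.28 over all genes. Many genes of these lists were sparsely counted. Genes of 20 to 80 UMIs in this class, with 10 or more in each library, had a median of 0.96. Of these, 45.4% were more than 2-fold higher. Requiring 10 UMIs in each library favours high ratios among sparse genes, because the PIGinH11 class held fewer UMIs (15484459 against 30186298). Some receptors also lay outside this range, such as CALCRL with 200 and 282 UMIs. The set therefore cannot decide whether the class B receptors were raised. The receptors that were higher were CALCR (2.14), CALCRL (1.46) and PTH2R (1.19). The peptidases MME (1.39) and DPP4 (1.38) were the 2 of 4 ligand and clearance genes that were higher, and of 10 genes of peptide processing and the granule 4 were higher and 1 lower (median 0.89). Of 20 genes of receptor and cyclic AMP signalling, 6 were higher and 1 lower (median 0.62). ADCY2 had a ratio of 3.45, from 86 to 481 UMIs, and ARRB1, the beta-arrestin that desensitises receptors, had a ratio of −1.20. Of 19 genes of the PNPLA family and lipid droplets, 8 were higher and 1 lower (median 0.59). PLIN2, which coats lipid droplets, was at 4.21 CPM (127 UMIs) in the WT and 23.1 CPM (357 UMIs) in the PIGinH11 library, a ratio of 2.45. MLXIPL, a glucose-responsive transcription factor, had a ratio of 2.05 and the hormone-sensitive lipase LIPE one of 1.75, whereas the monoglyceride lipase MGLL was lower, at 272 and 124 CPM (−1.13).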

How the data were processed

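Nuclei from the pancreas of 1 WT and 1 PIGinH11 pig, grouped by the genotype label, had been profiled by RNA sequencing. The authors aligned reads to Sscrofa11.1 and deposited raw UMI counts per gene and barcode, before doublet removal and filters. Cell Ranger is v3.1.0 in the processing notes but v5.0.0 in the file headers, and whether introns were counted is not stated. The supplement of the paper gives a larger share of reads mapped to the transcriptome than to exons in both libraries, which exonic reads alone cannot give. Limits on barcodes were 270 to 3700 genes, 13000 UMIs and 10% of UMIs from mitochondria, and the highest Scrublet scores (scanpy v1.11.5), 0.8% for each 1000 barcodes, were removed. The UMI limit was set 10 times above the one printed in the methods, which lies below the WT median.

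Nuclei were clustered with 2000 variable genes per library, 30 components, Harmony and Louvain (igraph v0.11.9, resolution 1, seed 0). The receptors, IAPP, PNPLA3, the hormones and the genes of the lists were left out of clustering and naming. Digestive enzymes and genes named only for their pattern were not left out, and the acinar markers served to name classes. Clusters of at least 20 nuclei were named from at least 3 markers. UMIs were summed over a class and divided by its total (CPM). Intervals were exact (Poisson, Clopper-Pearson, conditional binomial), computed with scipy v1.17.1, and cover counting error only. Where no UMI was found, the limit is 3 counts. Genes of 10 or more UMIs in the WT and in the PIGinH11 library entered list counts and the shares past 2-fold. A list names up to 4 genes with the largest ratios whose intervals left out 0, and genes needed as a ligand, enzyme, neighbour or receptor of the same family. Thinned values are expectations over draws of 500 UMIs and leave out nuclei with fewer UMIs than that. The split at 0.5% acinar markers was chosen after seeing the data. Gene positions and 841 names came from RefSeq and reference tables of Sscrofa11.1. The genes, lists and alternatives were chosen with earlier results of these data known. The ratio was also computed on counts simulated with the same counting error that its interval assumes. Those counts hold no spread between nuclei or animals, so that they are no independent check of the interval. Some genes that followed GLP1R by class are not reported here.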

Additional observations from a re-analysis of the deposited data

Results flagged for a closer look

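The barcodes that the filters and doublet removal left out (1765 WT and 1838 PIGinH11 barcodes) enter none of the comparisons above, and 3 of the genes were higher there in the PIGinH11 library, with intervals above 0. The log2 ratio between PIGinH11 and WT was 1.00 for GIPR (38 and 24 UMIs, 0.20 to 1.78), 0.38 for GLP1R (827 and 339 UMIs, 0.19 to 0.56) and 2.25 for PNPLA3 (6 and 9 UMIs, 0.60 to 4.02). Over the 14778 genes with 10 or more UMIs in the WT and in the PIGinH11 library in these barcodes, the interval lay above 0 in 44.7% and below 0 in 11.8%. PNPLA3 had fewer UMIs than that. The ratio of GCGR was −0.34 (−1.57 to 0.75). In all nuclei retained, the corresponding ratios were 1.24, 0.37 and 2.45. Both sets mix classes. Alpha-like, beta-like, delta-like and gamma-like nuclei made up 0.565%, 1.11%, 0.236% and 0.11% of WT nuclei and 0.648%, 1.03%, 0.503% and 0.312% of PIGinH11 nuclei. Endocrine nuclei left unnamed made up 0.354% of WT and 1.24% of PIGinH11 nuclei. The part of the class make-up in these ratios was not tested.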

How the results depend on the processing

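Of 198 recomputed values, 179 stayed within the 95% interval of the reported value, 19 moved outside it and no called ratio changed sign. GLP1R in acinar-like nuclei fell from a log2 ratio of 0.30 to 0.07 with median-of-ratios scaling. An alternative added after seeing the data left out nuclei, outside the acinar-like class, with at least 0.5% of UMIs from acinar markers. The ratio in beta-like nuclei was then −0.92 for GLP1R and −1.58 for GCGR (5 and 36 UMIs). The PIGinH11 ratio of beta-like over acinar-like nuclei for GLP1R was −0.98. With subtraction of acinar-like UMIs as free RNA, that ratio was −1.29 in the WT and −1.17 in the PIGinH11 library, since this treats all GLP1R of acinar-like nuclei as free RNA. In nuclei thinned to 500 UMIs it was 0.48 in the PIGinH11 library, and for GCGR in the WT it was 6.61. Assigning nuclei by hormone gave −1.83 for GLP1R in alpha-like over acinar-like nuclei of the PIGinH11 library. Thinning lowered the share of nuclei with a UMI by its construction, in the WT and PIGinH11 libraries to 3.81% and 4.86% for GLP1R in acinar-like, 4.96% and 6.6% for GLP1R in beta-like, 1.57% and 3.98% for GIPR in beta-like, 3.58% and 2.86% for GIPR in alpha-like, and 3.6% and 2.67% for GCGR in beta-like nuclei. For PNPLA3 in acinar-like nuclei the ratio ranged from 1.11 to 2.03. Subtraction of free RNA gave no value for GLP1R in alpha-like nuclei, where it left less than 0 counts. No paired analysis was possible because each group has 1 library, and no replicate could be left out for the same reason. With 1 pig a group, differences between animals cannot be told apart from those between genotypes.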
